A study of Mus musculus with 7 samples.

Results

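The genes of sterol and fatty acid synthesis were examined in the posterior second heart field (pSHF) of mouse embryos, the mesoderm behind the early heart tube that supplies progenitors of the atrial septum. The list holds 31 genes out of the 21475 named genes on the array: 18 enzymes of the sterol pathway, 9 enzymes of fatty acid synthesis and 4 genes that regulate the pathways or carry sterol. The list was drawn up with results of the mutant and wild-type comparison already known, so the genotype values of these genes are given as a description and nothing is concluded from their direction. No threshold on signal or fold change chose the members. Each gene is represented by its brightest probe, taken by the mean over all arrays.

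The pSHF was dissected from embryos at E9.5 and pooled by genotype, giving 4 *Shh* -/- pools (mutant pools 1 to 4) and 3 *Shh* +/+ pools (wild-type pools 1, 3 and 4), all from crosses of heterozygous parents on a mixed background that the labels spell C56B/6 and CD-1 with superovulated mothers. The *Shh* mutation was carried by the whole embryo rather than by 1 tissue, the dissected piece carried the attached foregut, and each array read several embryos pooled. In bulk tissue, fewer cells of a type and less RNA per cell cannot be told apart. Every pool was read on 1 array in 1 color. The pool number marks a shared slide: mutant and wild-type pools of the same number lay on 1 slide. The mutant sample occupied the first position of the slide each time and the control the second, and the effects of position and genotype cannot be told apart. No wild-type array shared the slide of mutant pool 2, and its label records a possible leak during hybridization.

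Cholesterol and fatty acids are both built from acetyl-CoA. The mevalonate enzymes turn it into farnesyl diphosphate, squalene synthase and the later enzymes close and trim the sterol ring, and a separate set of enzymes makes, lengthens and desaturates fatty acids. When membrane sterol is low, SREBP proteins are carried by SCAP from the endoplasmic reticulum to the Golgi, cut, and switch on the genes of both arms, while INSIG proteins hold them back when sterol is plentiful. Cholesterol is also tied to Hedgehog signaling, since the SHH ligand carries a covalent cholesterol and Smoothened binds sterols.

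Values are normalized log2 signals, so that a difference of 1 is a 2-fold difference on the linear scale, and fold changes are mutant minus wild type on the log2 scale with the standard error of limma's fit. Signals of different probes are not compared with each other. On the arrays, 59.96% to 70.6% of all probes were well above background, median spot signals ran from 86.4 to 145.3 intensity units over local backgrounds of 21 to 25, and the number of arrays limits the precision. All 31 genes were well above background on all 7 arrays, so none entered through 1 genotype alone. The targeted gene, *Shh*, read 9.22 to 9.67 in the mutant pools and 9.98 to 10.74 in the wild-type pools, with no overlap. Its probe kept 47.4% of the wild-type signal in the mutants and was well above background on all 4 mutant arrays. Nothing in the labels ties the pools to separate litters, and p-values therefore measure the spread between these pools only.

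The promoters were read first, because SREBP acts at sterol regulatory elements together with NF-Y, which binds the CCAAT box, and Sp1, which binds the GC box. RefSeq promoters (GRCm38.p6, 250 bases before to 50 after a start site) were matched for 24 of the 31 genes. *Fdps*, *Fdft1*, *Sqle*, *Stard4*, *Scd1*, *Scd2* and *Fads1* had no entry. The CCAAT box (letters CCAAT on either strand) was found in 20 of the 24 genes, or 83.3%, against 42.5% of the 11239 tested genes with a promoter in the table. Among the sterol enzymes it was found in 14 of 15, or 93.3%, with *Acat2* the exception, and 9 of these 15 held at least 2 matches in 1 promoter, against 15.9% of the tested genes. In the fatty acid arm 3 of 6 held a match, namely *Acly*, *Acss2* and *Fasn*. For a gene with several listed start sites, such as *Dhcr7* and *Srebf1* with 3 each, a match at any of them was counted, in the members as in the tested genes.

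The GC box (GGGCGG on either strand) was found in 20 of the 24 genes (83.3%), against 66.4% of the tested genes, and the E-box (CACGTG), which SREBP1 can also bind, in 4 of 24 (16.7%) against 11.4%. The sterol element core (TCACNCCAC on either strand) was found in 1 of 24, *Hmgcs1*, against 1.44% of the tested genes. Matches of letters are a description of the window, and binding was not measured in this tissue. Matches that overlap each other were all counted, as in *Fasn*, where CCAATTGG holds 1 CCAAT match on each strand.

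**Figure D1:**
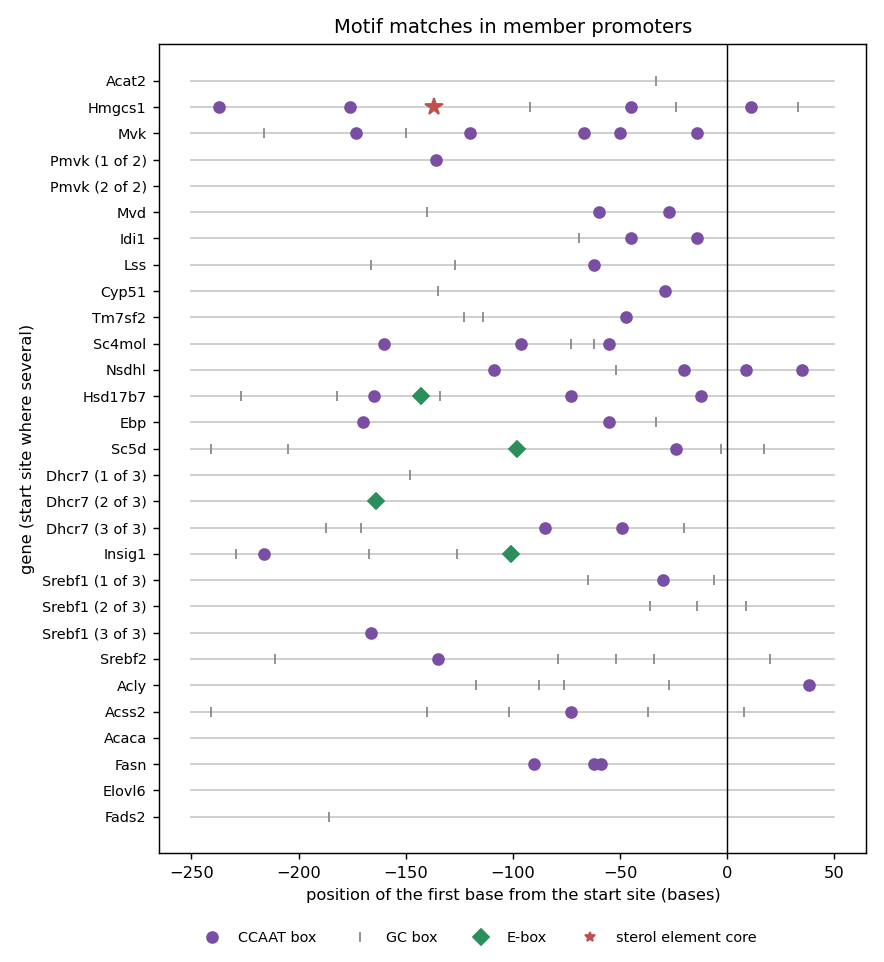
Map of motif matches in the RefSeq promoters of the 24 matched genes, with the position of the first base of each match in bases from the start site on the x axis and 1 line per gene or start site on the y axis. Circles are CCAAT boxes, short bars GC boxes, diamonds E-boxes and the star the sterol element core. CCAAT boxes lay in 14 of 15 sterol enzyme genes, *Mvk* held 5, and the 1 sterol element core was in *Hmgcs1*.

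The promoters of 5 genes are printed below 5′ to 3′ on the strand of the gene, in lower case with CCAAT boxes of either strand and the sterol element core in capitals. They are shown because *Hmgcs1* alone held the sterol element core, at position -137 from the start site, *Mvk* held the most CCAAT boxes, at -173, -120, -67, -50 and -14, *Nsdhl* held 4, *Insig1* held 1 CCAAT box at -216 and an E-box at -101, and *Fasn* was the fatty acid enzyme with the most.
Hmgcs1 (GRCm38.p6, chr13:119690101-119690400, plus strand): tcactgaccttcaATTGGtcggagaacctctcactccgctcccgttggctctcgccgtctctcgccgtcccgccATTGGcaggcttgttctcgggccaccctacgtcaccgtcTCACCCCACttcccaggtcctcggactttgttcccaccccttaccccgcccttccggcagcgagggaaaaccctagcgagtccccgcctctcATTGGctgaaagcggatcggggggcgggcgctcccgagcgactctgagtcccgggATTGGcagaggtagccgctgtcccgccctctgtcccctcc
Mvk (GRCm38.p6, chr5:114444019-114444318, plus strand): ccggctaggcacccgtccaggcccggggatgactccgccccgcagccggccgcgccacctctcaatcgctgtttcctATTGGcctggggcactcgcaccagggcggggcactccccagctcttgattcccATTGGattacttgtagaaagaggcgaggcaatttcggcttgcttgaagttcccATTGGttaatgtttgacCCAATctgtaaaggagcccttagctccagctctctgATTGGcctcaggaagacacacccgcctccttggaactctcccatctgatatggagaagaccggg
Nsdhl (GRCm38.p6, chrX:72918271-72918570, plus strand): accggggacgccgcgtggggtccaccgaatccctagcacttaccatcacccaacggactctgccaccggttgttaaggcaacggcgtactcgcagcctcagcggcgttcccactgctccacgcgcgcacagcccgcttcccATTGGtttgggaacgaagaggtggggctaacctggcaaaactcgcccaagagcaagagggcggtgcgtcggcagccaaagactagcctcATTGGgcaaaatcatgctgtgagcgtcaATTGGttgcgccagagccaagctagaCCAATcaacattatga
Insig1 (GRCm38.p6, chr5:28071162-28071461, plus strand): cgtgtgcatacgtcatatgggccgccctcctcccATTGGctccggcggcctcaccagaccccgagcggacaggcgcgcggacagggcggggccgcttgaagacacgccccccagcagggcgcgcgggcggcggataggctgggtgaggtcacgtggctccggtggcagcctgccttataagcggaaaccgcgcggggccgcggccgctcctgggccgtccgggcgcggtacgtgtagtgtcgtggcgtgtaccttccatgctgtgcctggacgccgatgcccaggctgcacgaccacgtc
Fasn (GRCm38.p6, chr11:120824498-120824797, minus strand): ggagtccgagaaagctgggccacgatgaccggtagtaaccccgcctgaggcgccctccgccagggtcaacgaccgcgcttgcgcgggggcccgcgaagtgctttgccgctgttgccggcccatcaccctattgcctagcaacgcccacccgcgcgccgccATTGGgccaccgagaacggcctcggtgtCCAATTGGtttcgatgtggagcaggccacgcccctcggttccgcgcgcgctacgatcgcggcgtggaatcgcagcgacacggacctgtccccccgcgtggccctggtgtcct

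Across the list, 27 of the 31 genes had a lower mean in the mutants, and the median of their log2 fold changes was −0.22. Over all 14894 genes tested, 40.5% had a negative fold change and the median was 0.03. Quantile normalization put 51.3% of all genes below 0, and 29 of the 31 members. No member had an adjusted p under 0.05 in limma, where 0.786% of all genes did, and 3 members (*Insig1*, *Scd1* and *Fdps*) were under 0.05 before adjustment, all lower in the mutants, where 9.1% of all genes were, 4.12% in that direction. The count before adjustment depended on the processing, and was 9 under quantile normalization and 10 without wild-type pool 1. The 9.1% of all genes belongs to the processing reported here. Under the alternatives that share was not counted, so the 9 and 10 cannot be set against it. Since the comparison itself informed the list, these counts stand as a description.

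**Figure D2:**
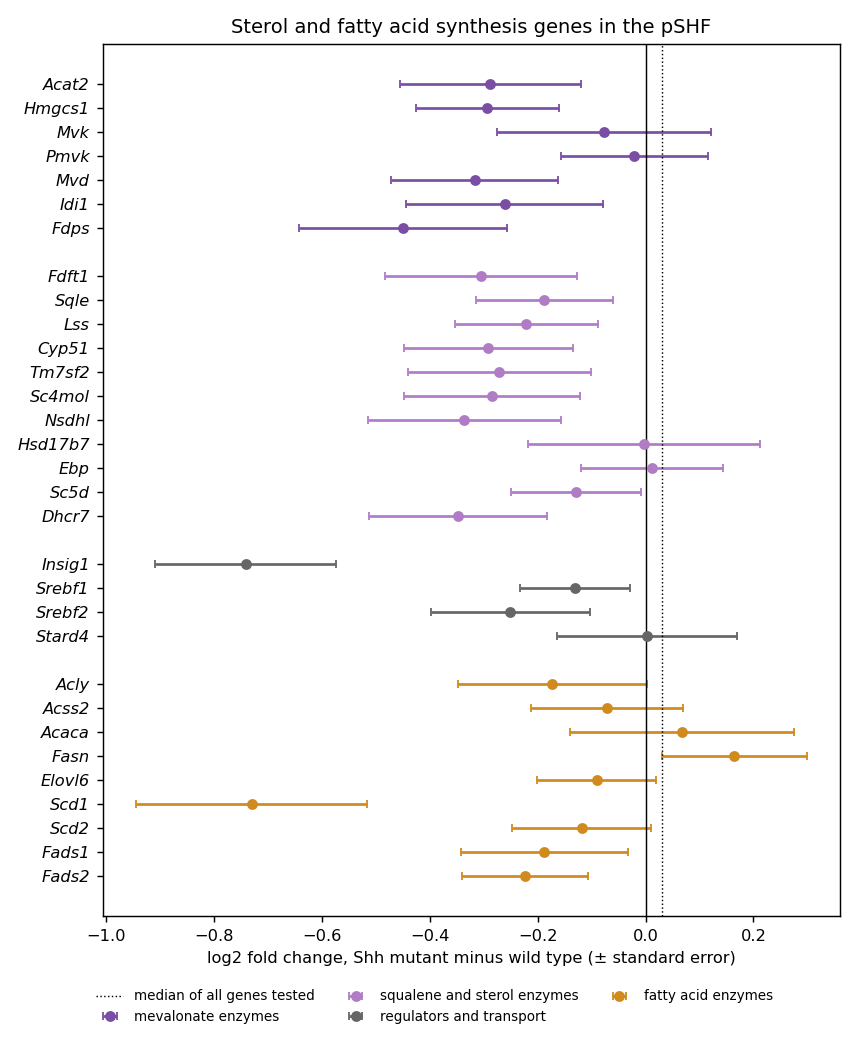
Log2 fold change of each of the 31 genes on the x axis (mutant minus wild type, points, with the standard error as bars), grouped by pathway step on the y axis, with 0 as a solid line and the median of all genes tested as a dotted line. Most points lie left of 0, with *Insig1* at −0.74 and *Scd1* at −0.73 farthest left and *Fasn* at 0.16 farthest right.

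The mevalonate enzymes were lower in the mutants for 7 of 7 genes, with a median of −0.29. *Hmgcs1*, which joins acetoacetyl-CoA and acetyl-CoA into HMG-CoA, read 15.30, 15.13, 15.17 and 15.43 in the mutants (pools 1 to 4, in this order throughout) and 15.50, 15.76 and 15.38 in the wild types (pools 1, 3 and 4). Mutant pool 4 lay above wild-type pool 4, so the genotypes overlapped, and the log2 fold change was −0.29 (standard error 0.13). In the authors' own values set to a single median per array its sign turned, to 0.12. *Fdps*, the synthase of farnesyl diphosphate, read 12.95, 12.64, 13.21 and 12.95 in the mutants and 13.11, 13.79 and 13.26 in the wild types, a log2 fold change of −0.45 (standard error 0.19). Mutant pool 2 was the lowest and wild-type pool 3 the highest.

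*Mvd*, which decarboxylates mevalonate diphosphate, read 11.41, 11.21, 11.36 and 11.29 in the mutants against 11.40, 12.00 and 11.52 in the wild types, a log2 fold change of −0.32 (standard error 0.15). Wild-type pool 1 lay within the range of the mutants. *Pmvk*, phosphomevalonate kinase, read 13.38, 13.23, 13.43 and 13.52 in the mutants and 13.34, 13.67 and 13.23 in the wild types, with the lowest pools of both genotypes equal to 2 decimals and a log2 fold change of −0.02 (standard error 0.14). The remaining members of this step, *Acat2* (the cytosolic thiolase that starts the pathway), *Mvk* (mevalonate kinase) and *Idi1* (the isomerase of isopentenyl diphosphate), lay between −0.29 and −0.08. The array's annotation placed the brightest *Idi1* probe on chromosome 2, whereas RefSeq places the gene on chromosome 13. For the other 30 genes the probe and the gene were on the same chromosome, and the second *Idi1* probe was at −0.28.

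The enzymes from squalene to cholesterol were lower for 10 of 11 genes, with a median of −0.27. *Sqle*, the squalene epoxidase and a rate-limiting step, read 13.36, 13.41, 13.41 and 13.25 in the mutants and 13.43, 13.79 and 13.41 in the wild types, a log2 fold change of −0.19 (standard error 0.13). Wild-type pool 4 was level with mutant pools 2 and 3 to 2 decimals, and wild-type pool 3 stood above all others. *Dhcr7*, the last enzyme on the route through 7-dehydrocholesterol and the gene mutated in Smith-Lemli-Opitz syndrome, read 14.09, 13.83, 14.15 and 13.79 in the mutants and 14.46, 14.52 and 13.97 in the wild types. Wild-type pool 4 lay inside the range of the mutants, and the log2 fold change was −0.35 (standard error 0.17).

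*Nsdhl*, the dehydrogenase of the demethylation steps, read 9.81, 9.25, 9.83 and 9.77 in the mutants and 9.88, 10.28 and 9.83 in the wild types, a log2 fold change of −0.34 (standard error 0.18). Its genotypes did not overlap, but mutant pool 3 and wild-type pool 4 were equal to 2 decimals, and mutant pool 2 lay far below the other mutants. *Hsd17b7*, the keto-reductase of the same steps, read 12.80, 12.76, 12.18 and 11.98 in the mutants and 12.26, 12.59 and 12.45 in the wild types. Its mutant pools reached both above and below the wild types (SD 0.414 against 0.165), and the log2 fold change was −0.0025 (standard error 0.22). *Ebp*, the sterol isomerase, read 14.34, 14.27, 14.16 and 14.33 in the mutants and 14.36, 14.42 and 14.00 in the wild types, a log2 fold change of 0.01 (standard error 0.13), with the mutants inside the range of the wild types. The remaining 6 enzymes of this step, *Fdft1* (squalene synthase), *Lss* (which closes the ring to lanosterol), *Cyp51* (the lanosterol demethylase), *Tm7sf2* (a sterol reductase), *Sc4mol* (the methyl oxidase now named *Msmo1*) and *Sc5d* (the desaturase), lay between −0.31 and −0.13.

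Of the regulators, *Insig1*, the membrane protein that retains SCAP and SREBP and is itself an SREBP target, had the largest negative fold change of the list. It read 7.47, 7.69, 7.62 and 7.78 in the mutants and 7.999, 8.67 and 8.48 in the wild types, so that the highest mutant pool was still under the lowest wild-type pool. The log2 fold change was −0.74 (standard error 0.17), which leaves 59.8% of the wild-type signal, and the second *Insig1* probe was at −0.50. Within slides 1, 3 and 4 the difference was −0.53, −1.05 and −0.70.

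*Srebf2*, which encodes the SREBP that favours sterol genes, read 14.77, 14.29, 14.74 and 14.84 in the mutants and 14.92, 14.96 and 14.85 in the wild types. The genotypes did not overlap, mutant pool 2 was lowest, and the log2 fold change was −0.25 (standard error 0.15). *Srebf1*, whose products favour fatty acid genes, read 13.78, 13.74, 13.59 and 13.69 against 13.87, 13.82 and 13.80, again without overlap, a log2 fold change of −0.13 (standard error 0.10). *Stard4*, a carrier of cholesterol between membranes, read 12.51, 12.48, 12.68 and 12.21 in the mutants and 12.27, 12.80 and 12.33 in the wild types, with overlap and a log2 fold change of 0.0029 (standard error 0.17).

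The fatty acid enzymes were lower for 7 of 9 genes, with a median of −0.12. *Scd1*, a stearoyl-CoA desaturase that makes monounsaturated fatty acids, read 9.67, 9.48, 9.85 and 9.33 in the mutants and 10.002, 10.83 and 10.11 in the wild types, without overlap. Its log2 fold change was −0.73 (standard error 0.21), or 60.3% of the wild-type signal, with −0.33, −0.98 and −0.78 within slides 1, 3 and 4. Without wild-type pool 3 it was −0.47. *Scd2*, the related desaturase of embryonic tissue, read 15.99, 15.77, 15.74 and 15.86 in the mutants and 16.17, 15.93 and 15.78 in the wild types, with overlap and a log2 fold change of −0.12 (standard error 0.13).

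*Fasn*, the synthase that assembles palmitate, was the member with the largest positive fold change. It read 16.59, 16.36, 16.30 and 16.75 in the mutants and 16.38, 16.36 and 16.27 in the wild types, a log2 fold change of 0.16 (standard error 0.13). Mutant pools 1 and 4 stood above the wild types and mutant pools 2 and 3 among them. *Acaca*, the acetyl-CoA carboxylase of the first committed step, read 8.98, 8.90, 8.57 and 8.41 in the mutants and 8.21, 8.83 and 8.90 in the wild types, a log2 fold change of 0.07 (standard error 0.21) with overlap. The other fatty acid enzymes, *Acly* and *Acss2* (which supply acetyl-CoA), *Elovl6* (an elongase) and the desaturases *Fads1* and *Fads2*, lay between −0.22 and −0.07.

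**Figure D3:**
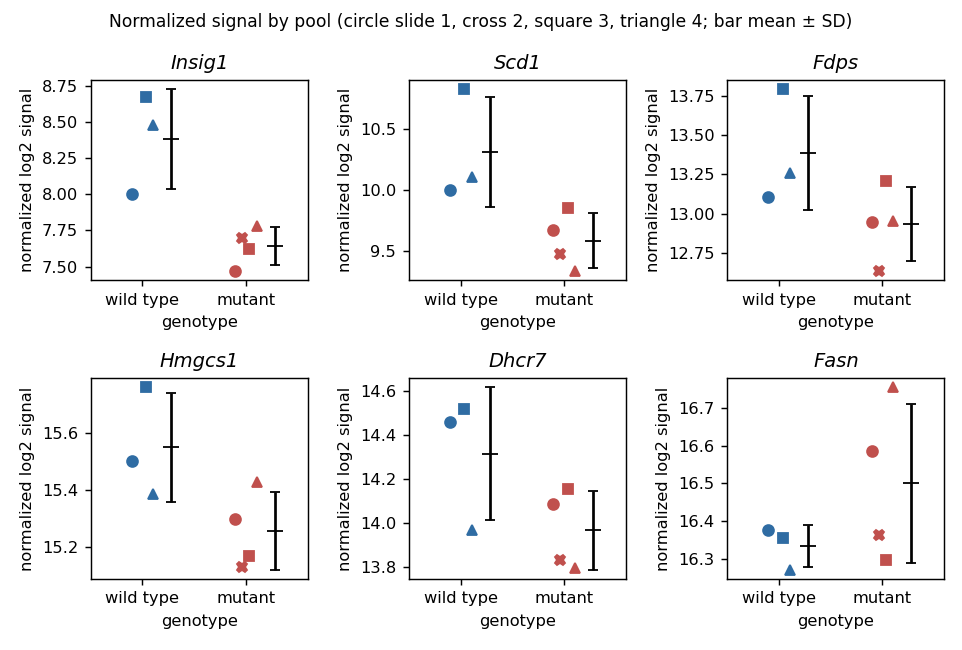
Normalized log2 signal (y axis) of 6 genes by genotype (x axis), with 1 point per pool, the symbol giving the slide, and the mean and SD as a bar (n = 3 wild-type and 4 mutant pools). *Insig1* and *Scd1* show no overlap between genotypes, *Fdps*, *Hmgcs1* and *Dhcr7* overlap in part with wild-type pool 3 highest, and *Fasn* has 2 mutant pools above the wild types.

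In all, the pools did not overlap for 5 members (*Insig1*, *Scd1*, *Nsdhl*, *Srebf2* and *Srebf1*), each lower in the mutants, where 3.8% of 14832 genes with a value on every array were apart in that direction. Of the 16 members with more than 1 tested probe, all probes had the sign of the brightest in 14, and *Pmvk* and *Stard4* were the exceptions. The signs of members near 0 were not stable: *Ebp* and *Stard4* stood at −0.03 and −0.05 under quantile normalization, and *Acaca* at −0.15 without wild-type pool 1. Members farther from 0 also turned, among them *Srebf1*, *Srebf2*, *Sc4mol* and *Scd2*. Their highest values, 0.04, 0.02, 0.06 and 0.35, all came from the authors' values with arrays set to a common median. Of the members without overlap, *Insig1*, *Scd1* and *Nsdhl* stayed below 0 in every alternative, with highest values of −0.60, −0.44 and −0.06. *Fasn* was above 0 under every setting tried, with 0.06 as its lowest value.

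The spread between pools was set beside that of the genes at large, as a description. The median SD between pools within a genotype was 0.217 for the members and 0.178 for all genes tested, 0.234 for the sterol enzymes and 0.184 for the fatty acid enzymes. Within the list, the most even gene was *Srebf1* (SD 0.0673) and the least even *Hsd17b7* (SD 0.337). The SD was wider among the wild-type pools than among the mutant pools for 25 of the 31 genes, 80.6%, against 43.3% of all genes. The median SDs were 0.232 in the wild types and 0.136 in the mutants, against 0.155 and 0.171 over all genes.

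Wild-type pool 3 stood apart from the others. It was the highest of the 7 arrays for 16 of the 18 sterol enzymes, 88.9%, and for 22 of all 31 members, while it was highest for 5.19% of all genes. Its median deviation from the gene mean was 0.41 over the sterol enzymes, against 0.03 and −0.01 in wild-type pools 1 and 4, which lay within the range of the mutants (−0.07, −0.25, 0.03 and −0.05 for pools 1 to 4). By the mean log2 level of the sterol enzymes, in contrast, the genotypes did not overlap, with 12.34, 12.73 and 12.36 in wild-type pools 1, 3 and 4 and 12.12 to 12.32 in the mutants. Over all 31 members neither measure overlapped, but the median deviations nearly met, at 0.014 in mutant pool 3 and 0.017 in wild-type pool 4. Mutant pool 2, the one with the possible leak, was the lowest for 10 of the 18 sterol enzymes, 55.6%, against 18.0% of all genes. The fatty acid enzymes were more even, from −0.12 to −0.03 in the mutants and −0.01, 0.17 and 0.10 in wild-type pools 1, 3 and 4. By their mean log2 level the genotypes overlapped, with 11.60 to 11.72 in the mutants and 11.68 to 11.98 in the wild types. The median spot signal of wild-type pool 3, 112 intensity units, lay within the range of the other arrays. Why this pool stood apart for these genes was not tested.

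**Figure D4:**
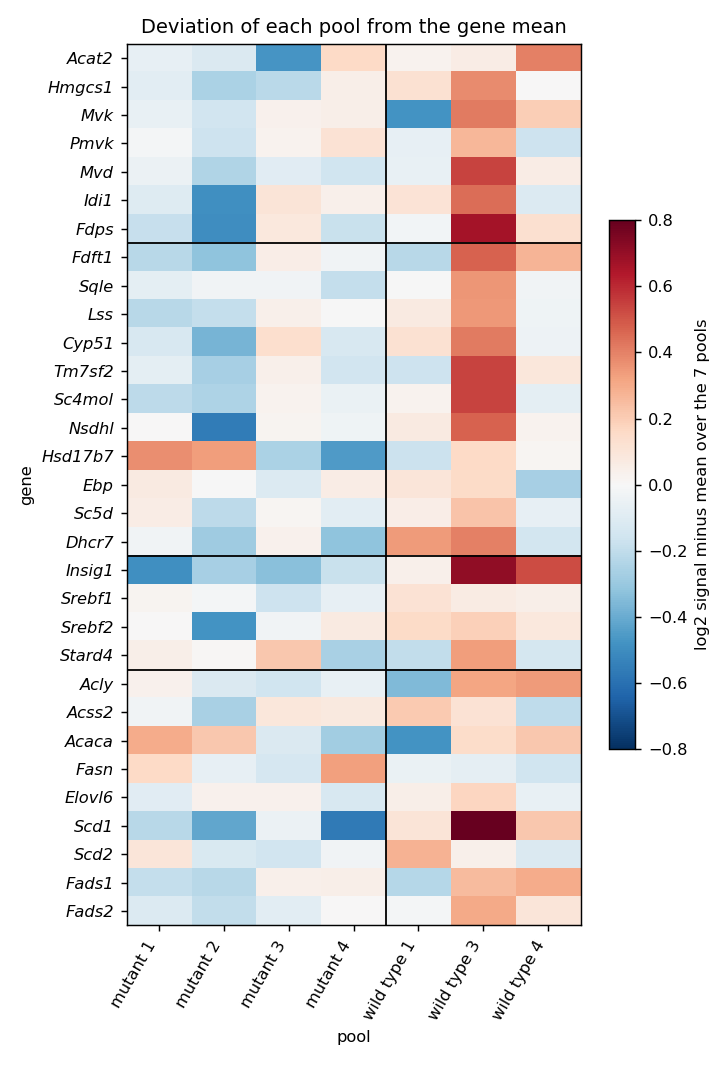
Heat map of the deviation of each pool (x axis) from the mean of the gene over the 7 pools, in log2 units by colour, for the 31 genes (y axis), with lines between the mevalonate enzymes, the squalene and sterol enzymes, the regulators and the fatty acid enzymes. The column of wild-type pool 3 is red for nearly all sterol enzymes, and that of mutant pool 2 is mostly blue.

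The values of the sterol arm depended on these pools. The enzymes were lower in the mutants for 17 of 18 genes with a median of −0.28 over all pools. Without wild-type pool 3 the count was 14 of 18 and the median −0.11, without mutant pool 2 it was 16 of 18 and −0.21, and without both it was 13 of 18 and −0.07. Each pool was left out in turn. Wild-type pool 3 stood highest for these genes, so a smaller difference without it follows from that position. Within slides, mutant pool 3 lay below wild-type pool 3 for 18 of 18 enzymes (median difference −0.40), whereas on slide 1 it was 11 of 18 (−0.07) and on slide 4 it was 12 of 18 (−0.12). Over all genes the medians within slides 1, 3 and 4 were −0.01, −0.01 and 0.12. The fatty acid enzymes were lower for 5, 9 and 6 of 9 genes on slides 1, 3 and 4, with medians of −0.10, −0.21 and −0.09, and their overall median was −0.07 without wild-type pool 3.

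The medians of the sterol and fatty acid arms differed by −0.16. The difference between the medians of both arms had an SD between pools of a genotype of 0.133, and with 1 pool left out at a time the arms differed by −0.18 to −0.05. The smallest of these was without wild-type pool 3.

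Other genes of the same pathways were listed to set the members in context. Of 10 further genes of sterol synthesis and SREBP control, 5 were lower and 5 higher in the mutants, with a median of −0.08. None had an adjusted p under 0.05 in limma. Before adjustment, 2 of the lower genes and 1 of the higher were under 0.05, where 9.1% of all genes were. Among the 5 lower genes was *Mbtps2*, the protease of the second SREBP cut, at −0.41, clearly above background on 3 of the 4 mutant arrays. The highest were *Acat1*, the mitochondrial thiolase, at 0.28 and *Insig2* at 0.11.

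Of 13 further fatty acid genes tested, 5 were lower and 8 higher, with a median of 0.06 and none past the threshold. Before adjustment, 1 of the higher genes was under 0.05, where 9.1% of all genes were. *Me1*, the cytosolic malic enzyme that supplies NADPH, was at 0.46 and *Elovl7*, an elongase, at 0.37, while *Gpsn2*, the enoyl reductase now named *Tecr*, was at −0.33 and *Acacb*, the mitochondrial carboxylase, at −0.24. *Thrsp* did not meet the requirement on brightness and was not tested. Of 8 genes of sterol sensing and efflux, 2 were lower and 6 higher, with a median of 0.04 and none past the threshold or under 0.05 before adjustment. *Abca1*, the cholesterol exporter, was at 0.27, *Soat1*, which esterifies cholesterol, at 0.22, *Abcg1* at −0.16 and *Nr1h3*, the LXR alpha receptor, at −0.16.

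Markers of other cells that the dissected piece could hold were not evenly spread over the genotypes. All 11 liver bud markers tested (among them *Afp*, *Alb* and *Apob*) were higher in the mutants, 3 of them with an adjusted p under 0.05 in limma, with a median of 0.82, and their mean log2 level was 10.46 to 10.92 in the mutant pools against 9.74 to 10.09 in the wild types. All 7 erythroid markers were lower (median −0.50, mean level 9.27 to 9.86 against 9.75 to 10.54), as were all 6 neural tube markers tested (median −0.49, mean level 6.99 to 7.84 against 7.79 to 7.85), with *Sox1* and *Dbx1* not tested because they were not well above background. The second heart field mesoderm markers, with *Isl1*, *Tbx5* and *Osr1* among them, were tested for 9 of 9 genes and went both ways, 4 lower and 5 higher in the mutants with a median of 0.04 and none with an adjusted p under 0.05 in limma. *Isl1*, *Tbx5* and *Osr1* were at −0.43, −0.31 and −0.88, *Foxf1a* at −0.80 and *Hand1* at 0.52. Before adjustment, 3 of the lower genes and 1 of the higher were under 0.05, where 9.1% of all genes were. Of the 9 foregut markers tested, 7 were lower and 2 higher in the mutants, with a median of −0.12. Their mean level was 11.51 to 11.55 in the mutants against 11.62 to 11.72 in the wild types. By median deviation the genotypes overlapped, with wild-type pool 3 highest at 0.13. The 8 cardiomyocyte markers all had a higher mean in the mutants (median 0.23). Their mean levels overlapped, however, with 13.41 to 14.63 in the mutant pools against 13.64 to 14.25 in the wild types. The 7 endothelial markers had a median of 0.05. The part of these cells in the values of the sterol and fatty acid genes was not tested.

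**Figure D5:**
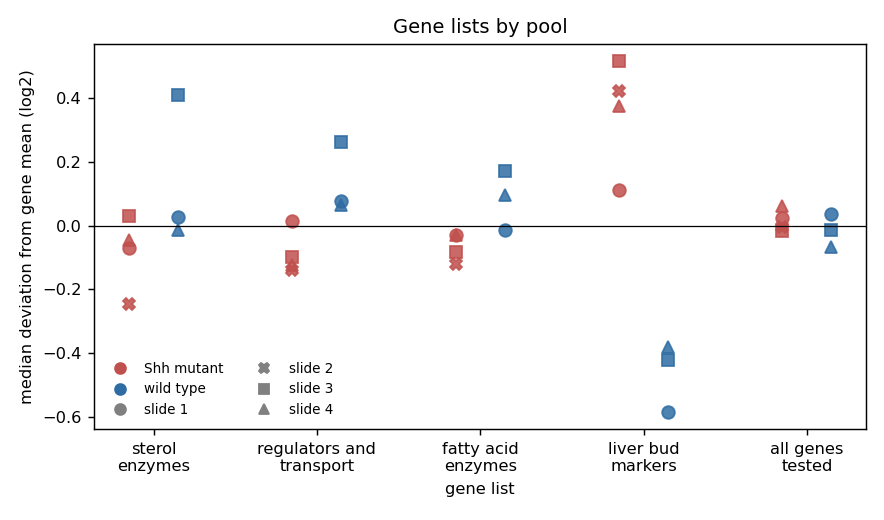
Median deviation of each pool from the gene mean (y axis, log2) for 5 gene lists (x axis), with mutant pools in red, wild-type pools in blue and the slide as the symbol. Wild-type pool 3 stands at 0.41 for the sterol enzymes while the other wild-type pools lie among the mutants by this median, though not by the mean level, and the liver bud markers separate the genotypes in the opposite direction.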

How the data were processed

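Pools of pSHF RNA were read on 1-color Agilent arrays. The deposited scan files give the intensity of each spot and of its local background (Feature Extraction 10.5.1.1). Their deposited table gives normalized log2 values, whose array medians ran from 5.50 to 9.93, with the centring not given in the sources used here. Groups and pool numbers were taken from the labels, in which the strain and genotype entries are exchanged.

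Mean signals were background corrected by normexp, estimated from 153 negative control spots with an offset of 50, and normalized by VSN (own implementation, trim 0.9, 7 iterations, 5 strata). Between 155 and 206 outlier spots per array were excluded, and 0 spots were saturated. Array medians then lay within 0.18. Probes were tested when they carried a gene name and exceeded background clearly on all arrays of either genotype, which left 23127 probes for 14894 genes, and spots of a probe were averaged. Genotypes were compared with limma 3.58.1 in R 4.3.3, with Benjamini-Hochberg adjustment over all tested probes. The samr test named in the authors' methods was not run. The fit was tested on simulated data. Promoters were searched in Python 3.11.15 (pandas 2.3.3), and plots drawn with matplotlib 3.10.9.

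The members, the other gene lists and the tests were chosen with earlier results of these data known. Values in every pool were given for the 6 largest decreases, for the 6 highest fold changes (of which 4 were above 0), for *Srebf1*, *Srebf2*, *Insig1*, *Hmgcs1*, *Sqle*, *Dhcr7*, *Fasn* and *Scd2*, and for members whose genotypes did not overlap. Of the other pathway genes, the 2 largest changes in each direction were named, except that some genes of these lists are not reported here.

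The pool number marks a shared slide in the labels. Deviations from the genotype means correlated at 0.192, 0.239 and 0.0328 within slides 1, 3 and 4. Between mutant and wild-type pools on different slides the correlations ran from −0.220 to 0.187. Slide was an alternative, as a fixed replicate block, which leaves mutant pool 2 without a partner, and as a random block (consensus correlation 0.101). Other alternatives were the background correction, quantile and 75th percentile scaling, all probes regardless of brightness, the authors' values, outlier spots kept, the mean over probes of a gene, and leaving out each array. The authors' values after centring all arrays on a common median, and leaving out mutant pool 2 and wild-type pool 3 together, were added after seeing the data.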

Additional observations from a re-analysis of the deposited data

Results flagged for a closer look

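*Nsdhl* in the mutant pools was singled out because 1 pool lay far from the rest. Mutant pool 2 read 9.25 and the other mutant pools 9.77 to 9.83, so that its gap to the nearest pool was 0.903 of the whole range, above Dixon's 95% critical value for 4 samples. It was the 1 such case among 34 groups examined, and chance gives about 1 in 20. The label of that pool records a possible leak during hybridization, and the part of the leak in this value was not tested.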

How the results depend on the processing

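No member had an adjusted p under 0.05 in limma under any of the 18 alternatives, and the sterol and fatty acid medians were below 0 in each of them. Members lower in the mutants ranged from 19 of 31 (authors' values with arrays set to a common median) to 30. The count of members under 0.05 before adjustment, 3 in the report, was 7 without background correction, 9 under quantile normalization, 5 with the 75th percentile, 5 with the mean over probes, 0 in the authors' values, 1 without mutant pool 2 and wild-type pool 3, and 2 to 10 with 1 pool left out. The share of all genes under 0.05 before adjustment was not counted for these alternatives. In the authors' values, whose array medians differ by several log2 units, the median was −0.75 for the sterol enzymes, −0.69 for the fatty acid enzymes and −0.53 for all genes, with a median SD between pools of 1.57. With their arrays set to 1 median, 13 of 18 sterol enzymes were lower, at a median of −0.14. Without mutant pool 2 and wild-type pool 3 the sterol median was −0.068, the difference between the arms −0.015 and the median SD of the members 0.140. With 1 pool left out, the sterol median ran from −0.32 to −0.11 (without wild-type pool 3), the difference between the arms from −0.18 to −0.05 and the median SD of the members from 0.184 to 0.243. With the replicate block, 16 of 18 sterol enzymes were lower at a median of −0.21, and the block changed no call among the members. Of all genes, 117 were called, and from 0 (authors' values) to 205 (mean over probes) under the alternatives. The causes of these shifts were not tested. No SD within genotypes was computed for the slide models.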
